A study of Rattus norvegicus with 10 samples.

Results

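Ttr, Folr1, Slco1a5, Cldn2, Enpp2, F5, Sostdc1, Mfrp, Ace and Cltrn are genes of the barrier and the secretion of the choroid plexus, and their mRNA was followed in the rat hippocampus on 10 Affymetrix arrays. Every probe set whose annotation gave exactly 1 of these symbols was taken, which found 11 probe sets, a pair of them for Ace, among 31042, and 10 genes among the 14217 with such a probe set. The genes were chosen by their measured values: the C-group and P-group difference and the joint variation of these genes on the same 10 arrays were known when they were named. Their levels and differences are therefore a description. The calls of fits over all probe sets are given for them too, but are no independent test of these genes. All 11 probe sets varied over the arrays, with a standard deviation (SD) from 0.50 for the second Ace probe set to 2.35 for Ttr, whereas an SD above 0.01 was found for only 9.36% of all probe sets. The C-group was 5 male Wistar rats fed solid chow, and the P-group was 5 male Wistar rats fed a powdered diet, with feed and water freely available in both. All rats were 3 weeks old at the start, were acclimated on powdered feed and were then kept on either diet for 8 days, and the labels give an age of 4 weeks. Each array was labeled from total RNA of a manually dissected hippocampus, and the arrays are called C1 to C5 and P1 to P5 after their labels. The comparison asks how mastication of a solid diet relates to hippocampal mRNA.

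The choroid plexus is a fold of the ventricle wall in which a single epithelial layer covers leaky capillaries. Its cells are joined by tight junctions into the barrier between blood and cerebrospinal fluid, move salt and water into the ventricle, and release carrier proteins and enzymes into the fluid. Solute carriers and receptors on the same cells bring in vitamins and clear hormones and organic anions. The plexus lies beside the hippocampus in the ventricles and is not part of the hippocampal tissue itself. In such a bulk sample, fewer cells of a type and less RNA per cell cannot be told apart.

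Sequences before the transcription start are printed for the gene with the widest range over the arrays, Ttr, and for the 3 genes whose promoter held a motif searched for, because the 10 genes varied together. RefSeq promoters on the rat assembly GRCr8 were matched by symbol for 6 of the 10 genes, Ttr, Slco1a5, F5, Mfrp, Ace and Cltrn, and the 250 bases before the start were read. Folr1, Cldn2, Enpp2 and Sostdc1 had no match. The motifs were chosen with the sequences in view: TAATCC, the core bound by OTX homeodomain proteins, CAATTA, bound by MSX proteins, and TGTTTAC, bound by forkhead proteins, each on both strands. TAATCC was found in 3 of the 6 promoters, against 6.31% of 33365 rat promoters of the same length, and is in capitals below. Neither CAATTA (7.31% of all promoters) nor TGTTTAC (3.21%) was found in the 6. Because of that choice of motifs, the counts and letters are a description. They are no evidence of an excess over other promoters or of binding. The Ttr stretch lies at chr18:12218508-12218757, plus strand, that of Mfrp at chr8:53342284-53342533, plus strand, that of Ace at chr10:91409879-91410128, plus strand and that of Cltrn at chrX:34027125-34027374, minus strand. Capitals begin 99 bases before the start in Mfrp, where the motif lies on the opposite strand and is printed as GGATTA, 38 bases before it in Ace and 82 bases before it in Cltrn. The sequences run 5′ to 3′ on the strand of the gene.
Ttr: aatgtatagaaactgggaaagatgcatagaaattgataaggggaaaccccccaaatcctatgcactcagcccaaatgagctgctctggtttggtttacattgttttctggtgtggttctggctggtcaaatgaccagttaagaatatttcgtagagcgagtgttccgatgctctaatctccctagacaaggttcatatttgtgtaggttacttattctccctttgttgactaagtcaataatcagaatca
Mfrp: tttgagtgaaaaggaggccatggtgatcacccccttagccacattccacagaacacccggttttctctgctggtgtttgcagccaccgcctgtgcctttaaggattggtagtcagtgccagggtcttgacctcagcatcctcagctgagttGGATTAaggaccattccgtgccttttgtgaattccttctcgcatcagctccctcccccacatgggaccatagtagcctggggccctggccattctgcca
Ace: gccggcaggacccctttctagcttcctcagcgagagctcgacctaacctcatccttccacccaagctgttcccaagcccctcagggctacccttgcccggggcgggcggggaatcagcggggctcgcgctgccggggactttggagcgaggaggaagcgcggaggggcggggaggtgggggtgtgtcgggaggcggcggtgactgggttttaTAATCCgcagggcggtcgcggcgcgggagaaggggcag
Cltrn: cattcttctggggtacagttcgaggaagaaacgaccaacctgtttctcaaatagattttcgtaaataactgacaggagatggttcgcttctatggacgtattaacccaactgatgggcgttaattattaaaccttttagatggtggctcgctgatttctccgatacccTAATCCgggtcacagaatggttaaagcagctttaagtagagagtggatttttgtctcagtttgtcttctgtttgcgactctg

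The deposited log2 values had nearly the same median on every array, from 7.0 to 7.02, and the number of arrays limits the precision. Array C1 stood apart, with a mean correlation of 0.898 with the other 9 arrays over the 2904 probe sets with an SD above 0.01. P2 had 0.945 and the remaining arrays 0.962 to 0.966. The hippocampal label was checked on neuron markers, of which Neurod6, a transcription factor of pyramidal cells, was at 10.63, 9.82, 10.50, 10.44 and 10.60 in C1 to C5, against 10.70, 10.60, 10.59, 10.72 and 10.65 in P1 to P5. Among the other variable neuron markers, Wfs1, Pou3f1, Bcl11b and Prox1 were lowest in C1, but the rest were not. Grik4 was highest in C1, at 8.21, Camk2a was lowest in P2, at 8.93, and Nrgn was lowest in P5. In C1 Wfs1 was at 7.63, against 8.22 to 8.83 in the other arrays, Pou3f1 at 8.08, against 8.83 to 9.35, Bcl11b at 9.5, against 9.90 to 10.33, and Prox1 at 9.13, against 9.37 to 9.73. Markers of photoreceptor and pineal cells were high in P2 alone, where 10 variable genes averaged 8.61, against 6.18 to 6.25 in the C-group arrays and 6.15 to 6.22 in the other P-group arrays, and rank products called 5 of the 12 measured lower in the C-group, against 0.383% of all probe sets.

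Across the 10 genes the same arrays were high. In all 11 probe sets the 5 highest arrays were C1, C2, C5, P3 and P5, with P5 always the fifth, and the 5 lowest were C3, C4, P1, P2 and P4. C1 was the highest array in 9 of 11 probe sets, C5 was highest for Ttr and C2 for F5. The lowest array was P2 in 5 probe sets, P1 in 4, C3 in 1 and C4 in 1. The widest step between neighbouring arrays lay below P5 in 6 probe sets and above P5 in 5. High and low arrays occurred in both diets, so the values of the C-group and the P-group overlapped in 11 of 11 probe sets. Over all probe sets, groups that did not overlap were found for 0.445%.

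**Figure D1:**
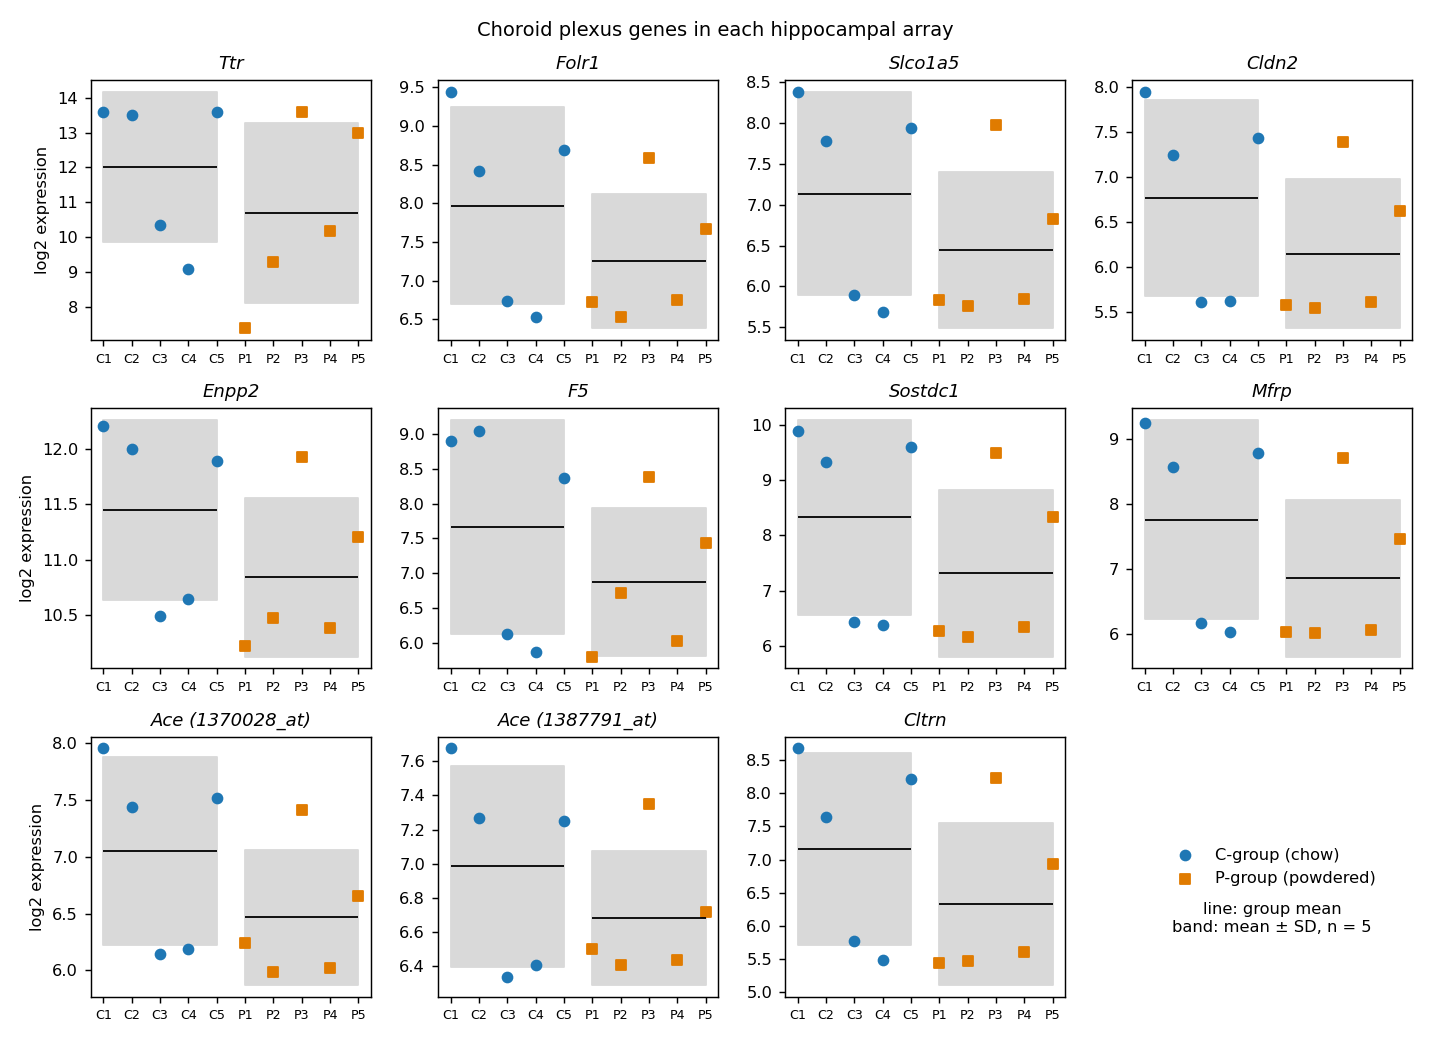
Log2 expression (vertical axis) of the 11 probe sets of the 10 choroid plexus genes in each array (horizontal axis), with C-group arrays as blue circles left of P-group arrays as orange squares and a line at each group mean. In every panel C1, C2, C5, P3 and P5 are the 5 highest arrays.

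Among the carriers, Ttr encodes transthyretin, which the choroid plexus releases in large amounts and which carries thyroxine and the retinol-binding protein. Ttr was at 13.59, 13.49, 10.35, 9.09 and 13.60 in C1 to C5, against 7.40, 9.29, 13.58, 10.18 and 12.99 in P1 to P5 on the log2 scale. The 4 highest arrays lay within 0.10 of each other, whereas the 5 lowest arrays spanned 2.96, the widest. Its mean was 12.02 ± 2.15 in the C-group and 10.68 ± 2.58 in the P-group (SD, n = 5 each), with a C-group minus P-group difference of 1.34 (standard error 1.46). The whole range of 6.20 log2 units is 73.5-fold, and Ttr had the highest SD of the 31042 probe sets. In C1, C2, C5 and P3 only 6 probe sets of the array lay above Ttr and the array maximum was 13.96, so these 4 values are near the top of the scale. Saturation of them was not tested. Another probe set listed Ttr together with the metallothionein symbols Mt1f and Mt1, and it was left out. It spanned only 8.70 to 9.04.

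Folr1 encodes a folate receptor that carries folate across the plexus into cerebrospinal fluid. Folr1 was at 9.45, 8.42, 6.74, 6.53 and 8.69 in C1 to C5, against 6.72, 6.53, 8.58, 6.76 and 7.67 in P1 to P5. C1 stood 0.86 above P3, the widest such gap of the 11 probe sets, and the 4 highest arrays spanned 1.02. The mean was 7.97 ± 1.27 in the C-group and 7.25 ± 0.87 in the P-group (SD, n = 5 each), with a C-group minus P-group difference of 0.71 (standard error 0.67). Slco1a5 encodes an organic anion transporter of the rat that carries thyroid hormones, bile acids and steroid conjugates. Slco1a5 was at 8.38, 7.77, 5.90, 5.69 and 7.93 in C1 to C5, against 5.84, 5.76, 7.97, 5.85 and 6.82 in P1 to P5. P3 was here above C5 and C2, and the 5 low arrays lay within 0.21. In those 5 arrays Slco1a5 was at the 2.57 to 7.81 percentile of the probe sets of the array, near the bottom of the scale. Their distance from background was not tested. The mean was 7.14 ± 1.25 in the C-group and 6.45 ± 0.96 in the P-group (SD, n = 5 each), with a C-group minus P-group difference of 0.69 (standard error 0.68).

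The barrier is represented by Cldn2, a claudin that forms cation and water channels in the tight junctions of leaky epithelia. Cldn2 was at 7.95, 7.24, 5.61, 5.62 and 7.44 in C1 to C5, against 5.59, 5.54, 7.38, 5.61 and 6.62 in P1 to P5. The 5 low arrays spanned only 0.08, and P5 lay 1.0 above them. In those 5 arrays Cldn2 was at the 1.03 to 1.72 percentile of the probe sets of the array, near the bottom of the scale, and their distance from background was not tested. The mean was 6.77 ± 1.09 in the C-group and 6.15 ± 0.82 in the P-group (SD, n = 5 each), with a C-group minus P-group difference of 0.62 (standard error 0.59).

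Of the secreted proteins, Enpp2 encodes autotaxin, the enzyme that makes lysophosphatidic acid, and it is also made by oligodendrocytes. Enpp2 was at 12.21, 12.0, 10.49, 10.65 and 11.89 in C1 to C5, against 10.22, 10.47, 11.93, 10.39 and 11.20 in P1 to P5. Its range of 1.99 log2 units (3.97-fold) was narrower than that of most of the genes, with the same 5 arrays at the top. The mean was 11.45 ± 0.81 in the C-group and 10.84 ± 0.71 in the P-group (SD, n = 5 each), with a C-group minus P-group difference of 0.61 (standard error 0.47). F5 encodes coagulation factor V, the cofactor of the prothrombin-cleaving enzyme. F5 was at 8.90, 9.03, 6.14, 5.88 and 8.36 in C1 to C5, against 5.81, 6.71, 8.38, 6.02 and 7.44 in P1 to P5. C2 exceeded C1 here, and P2 stood above the other low arrays, so that the low arrays spanned 0.91. The mean was 7.66 ± 1.54 in the C-group and 6.87 ± 1.06 in the P-group (SD, n = 5 each), with a C-group minus P-group difference of 0.79 (standard error 0.81). Sostdc1 encodes a secreted inhibitor of BMP signals that also modulates Wnt signals. Sostdc1 was at 9.88, 9.34, 6.43, 6.39 and 9.59 in C1 to C5, against 6.27, 6.17, 9.49, 6.34 and 8.33 in P1 to P5. The step between P5 and the next array was 1.90, and the whole range was 13.1-fold. The mean was 8.33 ± 1.76 in the C-group and 7.32 ± 1.51 in the P-group (SD, n = 5 each), with a C-group minus P-group difference of 1.0 (standard error 1.0).

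The membrane proteins followed the same arrays. Mfrp encodes a frizzled-related membrane protein known for its role in the growth of the eye, where the retinal pigment epithelium makes it. Mfrp was at 9.25, 8.57, 6.17, 6.03 and 8.78 in C1 to C5, against 6.04, 6.02, 8.71, 6.07 and 7.46 in P1 to P5. Its 5 low arrays lay within 0.15 of each other and its high arrays reached 9.25. The mean was 7.76 ± 1.54 in the C-group and 6.86 ± 1.20 in the P-group (SD, n = 5 each), with a C-group minus P-group difference of 0.90 (standard error 0.85). Cltrn encodes collectrin, which brings amino acid transporters to the membrane of kidney cells. Cltrn was at 8.67, 7.64, 5.77, 5.49 and 8.22 in C1 to C5, against 5.45, 5.47, 8.22, 5.61 and 6.93 in P1 to P5. Its 4 highest arrays spanned 1.03, with C1 above P3 and C5 and C2 the lowest of the 4. In the 5 low arrays it was at the 0.499 to 4.08 percentile of the array, again near the bottom. The mean was 7.16 ± 1.45 in the C-group and 6.34 ± 1.22 in the P-group (SD, n = 5 each), with a C-group minus P-group difference of 0.82 (standard error 0.82).

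Ace encodes the angiotensin-converting enzyme, which makes angiotensin II and is also carried by endothelial cells. The first Ace probe set was at 7.95, 7.44, 6.15, 6.18 and 7.52 in C1 to C5, against 6.24, 5.99, 7.41, 6.03 and 6.66 in P1 to P5. The second Ace probe set was at 7.68, 7.27, 6.33, 6.40 and 7.25 in C1 to C5, against 6.50, 6.40, 7.35, 6.44 and 6.72 in P1 to P5. Both had the same 5 high arrays, but the range of the first was 3.89-fold and that of the second was 2.53-fold. The mean of the first was 7.05 ± 0.83 in the C-group and 6.47 ± 0.59 in the P-group (SD, n = 5 each), with a C-group minus P-group difference of 0.58 (standard error 0.44). The mean of the second was 6.99 ± 0.59 in the C-group and 6.68 ± 0.39 in the P-group (SD, n = 5 each), with a C-group minus P-group difference of 0.30 (standard error 0.31). This second probe set had the smallest difference of the 11.

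The values of the genes differed from each other at the ends of their range, where some are near the limits of the scale. Ttr was near its top in 4 arrays, and Slco1a5, Cldn2 and Cltrn were near its bottom in the 5 low arrays. F5 was also near the bottom in P1 (4.98 percentile of the array) and C4 (7.09). In the 5 low arrays Mfrp was at the 12.1 to 18.9 percentile and the first Ace probe set at the 10.9 to 22.3 percentile. Their distance from background was not tested either. From P5 to the next array down, C3 in Ttr, the step was 2.64 log2 units, and from C3 to P1 Ttr spanned a further 2.96. Mfrp changed by 1.29 from P5 to C3 and by 0.13 from C3 to P1. At the top, C1 exceeded P3 by 0.02 in Ttr, 0.54 in Mfrp and 0.86 in Folr1. Plotted against Mfrp, Ttr was level over the 4 highest arrays and spread out over the 5 lowest, whereas Sostdc1, Cltrn and Cldn2 spread more over the 4 highest than over the 5 lowest.

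**Figure D2:**
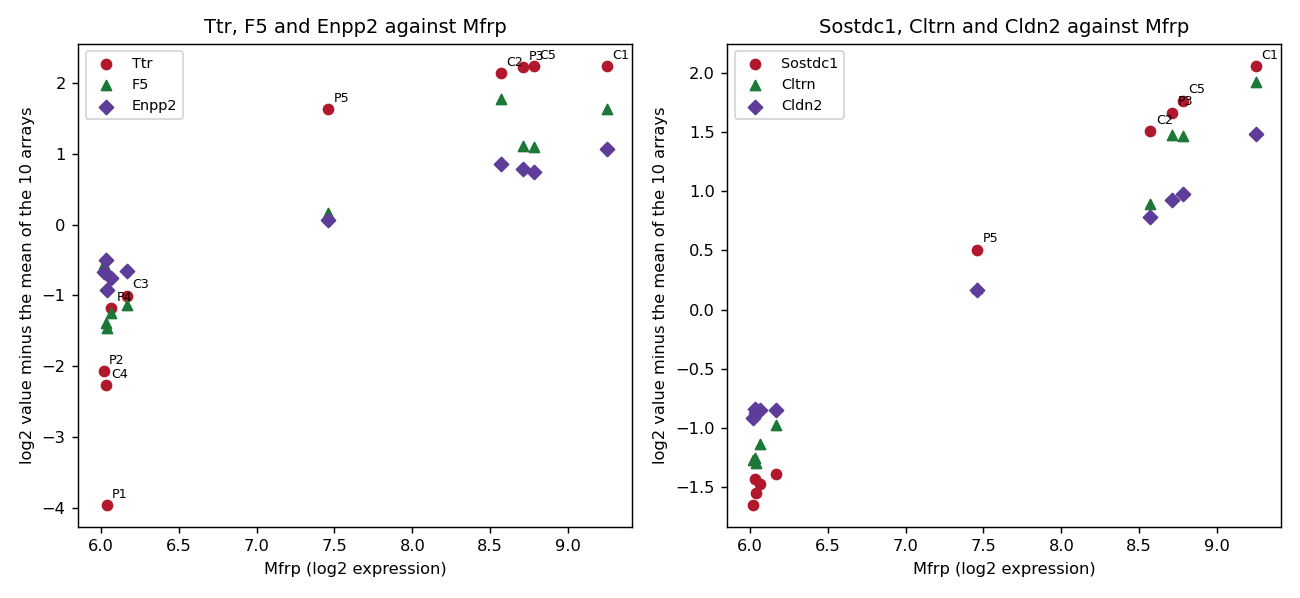
Log2 value of Ttr, F5 and Enpp2 (left) and of Sostdc1, Cltrn and Cldn2 (right), each minus its mean over the 10 arrays, against the log2 expression of Mfrp, with 1 point per array and gene and array names at the first gene. The low arrays span 2.96 in Ttr and 0.08 in Cldn2, whose values there are near the bottom of the scale, and the 4 highest Ttr values are near its top.

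In the comparison of the diets, the C-group mean was above the P-group mean in all 11 probe sets, and so was the median. The 10 genes, each centred on its mean over the arrays and averaged, with the Ace probe set of the higher SD, were at 0.40 ± 1.35 in the C-group and -0.40 ± 1.12 in the P-group (SD, n = 5 each), a difference of 0.81. By array this mean was 1.70, 1.17, -0.95, -1.17 and 1.28 in C1 to C5, against -1.37, -1.13, 1.24, -1.04 and 0.29 in P1 to P5. The C-group thus held 3 of the 5 high arrays and the P-group held the other 2. Every group SD in the 11 probe sets was larger than the difference between the groups. Limma, whose statistic sets a difference against the spread within the groups, called none of the 31042 probe sets (0.00%), while 2.95% had an unadjusted p under 0.05.

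Rank products takes all 25 pairs of a C-group array with a P-group array, ranks the probe sets by each difference, and leaves the spread between arrays out of account. At a false discovery rate (FDR) under 0.05 it called all 10 genes, in all 11 probe sets, higher in the C-group. This rule called 2.0% of all probe sets higher and 0.383% lower. The genes were chosen with this contrast known, so nothing is read from that count. The probe set closest to the threshold was the second one of Ace, with an FDR of 0.0472. The calls depended on the probe sets tested: among the 2904 variable ones alone, 4 of the 10 genes (Ttr, Sostdc1, F5 and Cltrn) were called, and Mfrp was just outside with an FDR of 0.060.

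The size of the differences changed with single arrays. Without C1, the mean difference of the 10 genes was 0.48, and without P3 it was 1.22. Without C1, the differences were 0.36 and 0.13 for the Ace probe sets, 0.33 for Cldn2, 0.44 for Cltrn, 0.48 for F5, 0.34 for Folr1, 0.53 for Mfrp, 0.38 for Slco1a5 and 0.61 for Sostdc1. Ttr and Enpp2 were not moved by over 1.5 times by C1. Ttr differed by 0.52 without P1, by 2.07 without C4 and by 2.06 without P3, and F5 by 0.45 without C2, by 0.52 without P1 and by 1.24 without C4. Without P3, the differences were 0.47 for the second Ace probe set, 1.29 for Cltrn, 1.37 for Mfrp, 1.07 for Slco1a5 and 1.55 for Sostdc1. Without C4, Cltrn differed by 1.24, Folr1 by 1.07 and Slco1a5 by 1.05, and without C3 the second Ace probe set differed by 0.47. All these differences stayed above 0. Without C1, rank products called 9 of the 10 genes, and Slco1a5 was not called, with an FDR of 0.0507.

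**Figure D3:**
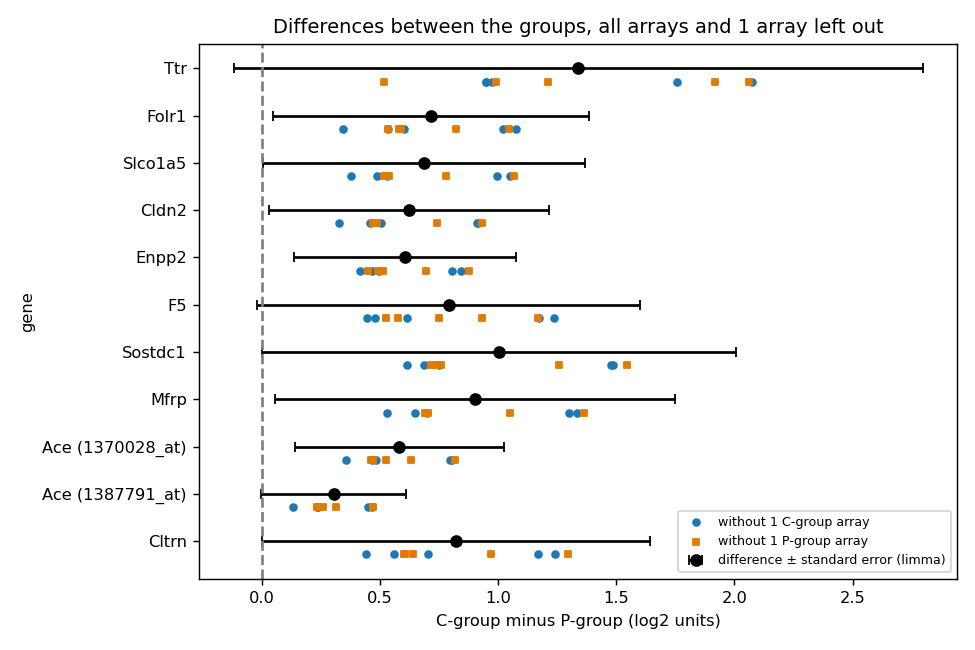
C-group minus P-group difference in log2 units (horizontal axis) for each probe set, with the limma standard error as a bar, and the same difference with 1 C-group array (blue circles) or 1 P-group array (orange squares) left out. All differences lie above 0, and the bars of Ttr, F5, Sostdc1 and the second Ace probe set cross 0, those of the last pair barely.

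Other genes followed the same arrays. Likeness was measured as Pearson's r over the 10 arrays with the mean of the 10 genes. The arrays lie mostly at 2 ends, so r largely states whether a gene separates the same arrays, and it is given as a description. Of 2032 other variable probe sets with 1 symbol, 71 (63 genes) had r above 0.9 and 0 had r below -0.9, with a median r of 0.19. The genes most like the 10 were Slc5a5, the sodium and iodide symporter (0.99), Msx1, a homeodomain transcription factor (0.99), Prlr, the prolactin receptor (0.99), Mdk, the growth factor midkine (0.99), Aqp1, the water channel of the plexus (0.98), Cox8b, a subunit of cytochrome oxidase (0.98), Scgb1c1 (0.98), Rbm47 (0.98), C8h11orf97 (0.98) and Steap1 (0.98).

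Slc5a5 was at 6.82, 6.75, 6.47, 6.41 and 6.72 in C1 to C5, against 6.40, 6.47, 6.77, 6.43 and 6.61 in P1 to P5, a small range of the same order. Msx1 was at 9.26, 8.88, 7.77, 7.65 and 8.88 in C1 to C5, against 7.35, 7.71, 8.84, 7.74 and 8.25 in P1 to P5. Aqp1 was at 8.11, 7.58, 6.18, 6.09 and 7.68 in C1 to C5, against 6.15, 6.13, 7.64, 6.11 and 6.69 in P1 to P5. In all 3 genes C1, C2, C5 and P3 were the 4 highest arrays and P5 the fifth. The 5 genes least like them were Brinp1 (r = -0.89), Cyp1b1 (-0.83), Arhgap12 (-0.78), Insig1 (-0.77) and Sorl1 (-0.76). Brinp1, a neuronal gene, was at 8.65, 8.99, 9.35, 9.31 and 8.81 in C1 to C5, against 9.12, 9.25, 8.90, 9.22 and 8.84 in P1 to P5, so it was lowest in C1 and C5.

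**Figure D4:**
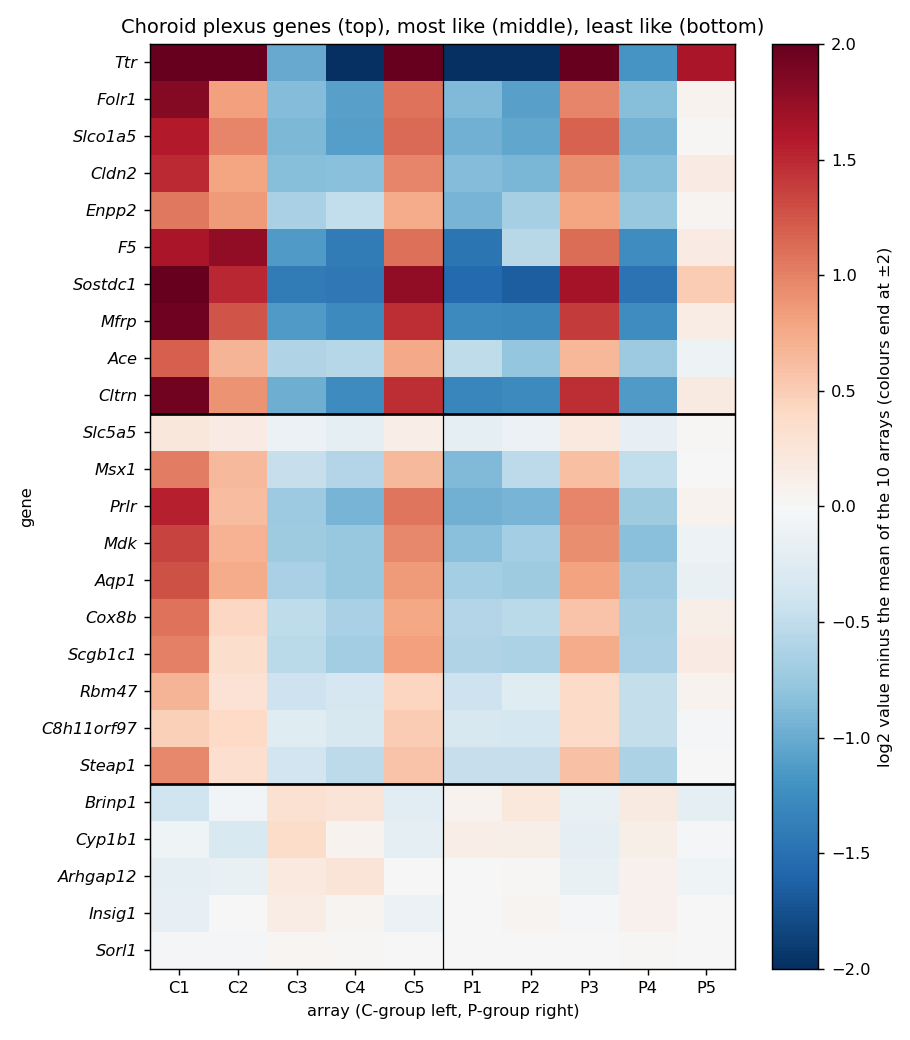
Log2 value minus the mean of the 10 arrays (colour, red above and blue below, ending at 2 units either way) for the 10 choroid plexus genes, the 10 genes most like them and the 5 least like them (rows) in C1 to C5 and P1 to P5 (columns). C1, C2, C5 and P3 are red in the upper 2 blocks, and the lowest block mostly runs the other way.

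The label of the 10 genes was checked on further markers of the choroid plexus epithelium, which were high in the same arrays. Of 27 other markers measured, 21 varied, 14 of them with r above 0.9 and a median r of 0.93, and rank products called 16 of the 27 higher, of which Htr2c was also called lower by the same probe set. Over all genes that varied, 346 of 1789 were called higher and 77 lower. In 20 of the 21 the highest array was C1, as it was in 461 of all 621 probe sets called higher. Their median C-group minus P-group difference was 0.27 among the variable genes, against 0.06 over all variable genes. By array, the markers averaged 8.20, 7.63, 6.86, 6.82 and 7.84 in C1 to C5, against 6.86, 7.07, 7.84, 6.85 and 7.23 in P1 to P5. The other 6 measured markers, Kcnj13, Trpv4, Cldn3, Trpm3, Tmem72 and Car12, had an SD of 0.01 or less and are uninformative here. Kl, the co-receptor klotho, had r = 0.97, Igf2, an insulin-like growth factor, 0.89, and Htr2c, a serotonin receptor, 0.77. Htr2c was at 10.99, 10.58, 8.58, 8.63 and 10.21 in C1 to C5, against 9.99, 9.25, 10.21, 9.88 and 10.03 in P1 to P5, with P1, P4 and P5 near P3 and C3 and C4 the lowest.

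The pathways in which the 10 genes act were given by lists of their other genes, and most of these were uninformative. Of all 14217 genes, 1789 varied, 346 were called higher and 77 lower. The lists overlap, so their counts are not separate results. Msx1 stands in more than 1 pathway list, and Aqp1, Kcne2, Cldn1 and Otx2 are also among the choroid plexus markers above. In the list of thyroid hormone and retinol transport, 5 of 13 other genes varied and 2 were called higher, Stra6, the retinol transporter (r = 0.94, difference 0.37), and Slco1c1, a thyroxine transporter of brain capillaries (r = 0.37, difference 0.23). None of 14 other folate genes varied. In the tight junction list 6 of 17 varied and 1 was called higher, Cldn1 (r = 0.97), at 6.48, 6.29, 5.41, 5.27 and 6.13 in C1 to C5, against 5.37, 5.44, 6.39, 5.36 and 5.68 in P1 to P5. Of 11 other genes of lysophosphatidic acid signalling 3 varied and 1 was called higher, the phosphatase Plpp3 (r = 0.22). Lpar1, a receptor for lysophosphatidic acid, ran against the 10 genes (r = -0.75) and spanned only 10.03 to 10.42.

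The counts of the remaining lists stand against the same 346 of 14217 genes called higher and 77 lower. Of 22 other coagulation genes 1 varied, Pros1, and none was called. In the list of BMP and Wnt antagonists and receptors 8 of 25 varied and 3 were called higher, Msx1, the Wnt antagonist Sfrp1 (r = 0.90) and the BMP receptor Bmpr2 (r = 0.02). Of 12 other genes of the renin-angiotensin system 2 varied, Mas1 and Atp6ap2, and none was called. Of the pathway lists, that of cerebrospinal fluid secretion had the most variable genes, 11 of 23, with 7 called higher, among them Aqp1, the potassium channel subunit Kcne2 (r = 0.95) and the anion exchanger Slc4a2 (r = 0.97), and 2 called lower. These 2 were Car3, which was at 8.78 in P2 and from 6.62 to 6.96 in the other arrays, and Atp1b1, which was at 11 in C1 and from 12.40 to 12.56 in the others. Of 19 regulators of transcription in the plexus 5 varied and 3 were called higher, Otx2, Msx1 and Ets2, the last with a C-group minus P-group difference of -0.06 and a low value of 7.94 in C1. Otx2, a homeodomain factor, was at 7.84, 6.96, 5.97, 5.74 and 7.36 in C1 to C5, against 5.67, 7.74, 7.36, 5.73 and 6.43 in P1 to P5, with P2 among its highest arrays although P2 was low for the 10 genes.

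Markers of other cell types were set beside these values, and their counts of calls stand against 346 of all 14217 genes called higher and 77 lower. Of 16 markers of meninges and perivascular fibroblasts 7 varied and 6 were called higher in the C-group, with means from 7.75 to 8.34 in the C-group arrays and from 7.48 to 8.26 in the P-group arrays. They were highest in C1, C5, C2 and P3, the 4 arrays that were highest for the 10 genes, but lowest in P5. Fmod, a collagen-binding proteoglycan of connective tissue, had r = 0.92 and Ogn, another, 0.84. The collagen genes Col1a2 and Col3a1 had r = 0.48 and 0.42, and the median r of the 7 was 0.51. Of 9 measured markers of ependymal cells 3 varied and 0 were called. Dynlrb2, a dynein light chain, had r = 0.89, Ak7 0.64 and Tmem212 0.30. The ependymal means ran from 6.64 to 7.56 in the C-group and from 6.57 to 7.29 in the P-group, and the defining gene Foxj1 was constant. Astrocyte markers were called higher in 4 of 9, with r from -0.54 to 0.60, and means from 9.58 to 9.98 in the C-group and from 9.37 to 9.81 in the P-group. Of 11 neuron markers 8 varied and 1, Neurod6, was called lower, with a median r of -0.40 and means from 9.34 to 9.85 in the C-group and from 9.62 to 9.79 in the P-group. Neuron means were lowest in C1 and C2. Rank products called 1 of 9 oligodendrocyte markers and 1 of 13 vascular markers higher, and 0 of 11 microglial and 0 of 4 red blood cell markers. The part of the other cell types in the values of the 10 genes was not tested.

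**Figure D5:**
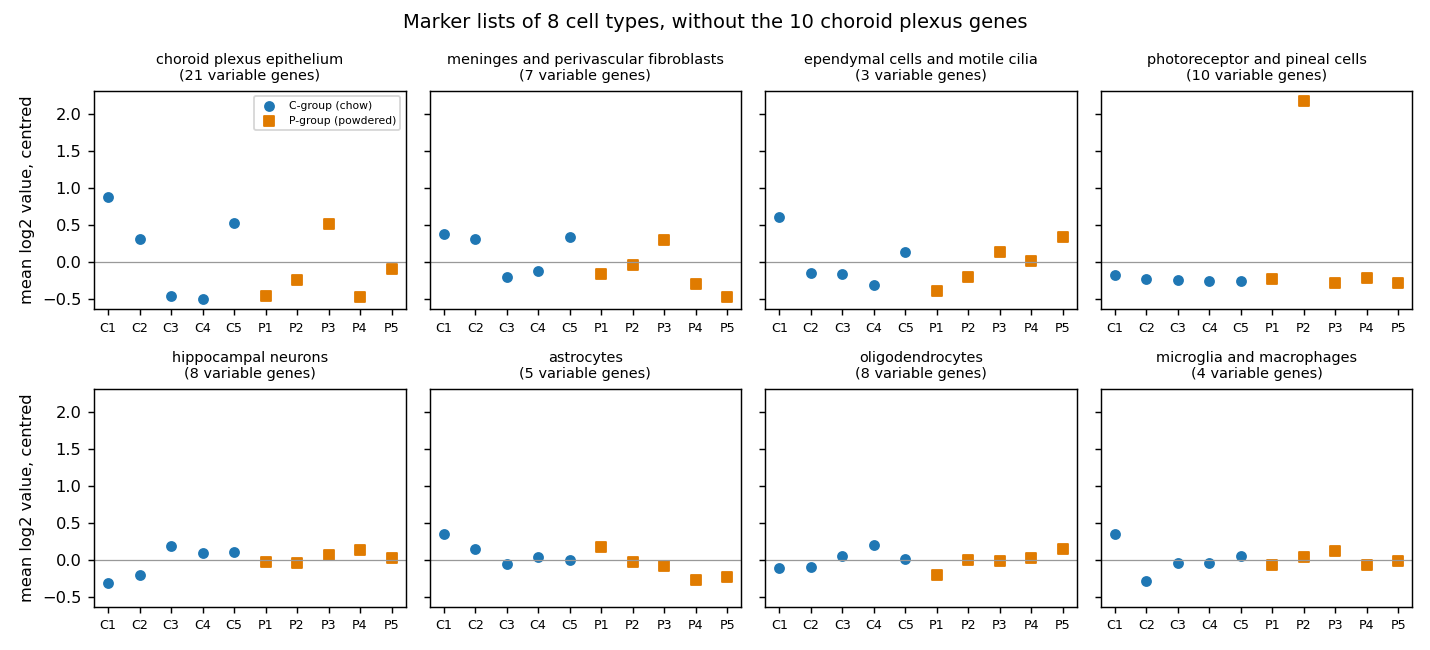
Mean log2 value of the variable genes of 8 marker lists in each array, minus the mean over the 10 arrays (vertical axis), without the 10 choroid plexus genes, for C-group arrays (blue circles) and P-group arrays (orange squares). The choroid plexus and meninges lists are highest in C1, C2, C5 and P3, and the photoreceptor and pineal list is high in P2 alone.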

How the data were processed

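Total RNA of the hippocampus (100 ng per array) was labeled with biotin and hybridised to Affymetrix rat genome arrays, 5 per group. Normalization and summarization were done by the authors with qFARMS, and the values they deposited are log2 expression. This factor model leaves nearly no variation where the probes of a set share none, so probe sets with an SD of 0.01 or less over the 10 arrays were taken as uninformative. Of 31099 probe sets, 57 controls were left out, and there were 0 columns of other samples. Scanner files and array dates were not used here, and a genome build was used only for the promoter sequences.

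The deposited log2 values were tested over all 31042 probe sets. Rank products, which the methods of the study name, was computed without pairing in Python 3.11.15 (numpy 2.4.6, pandas 2.3.3) with 100 permutations within arrays and an FDR threshold of 0.05. Standard errors and Benjamini-Hochberg adjusted p-values were given by lmFit and eBayes of limma 3.58.1 (R 4.3.3) with a threshold of 0.05. Both were run on simulated data with known shifts, in which the probe sets varied independently of each other. Genes vary together on these arrays, and calls of rank products among unchanged probe sets were not counted. That run therefore does not measure its false calls here. Differences are C-group minus P-group in log2 units. The study states 5 rats per group. Limma sets the differences against the spread between these arrays, and rank products leaves that spread out of account.

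Gene names came from the platform annotation. Of several probe sets of a gene, that with the highest SD was used in means. The genes, the 10 marker lists and the 9 pathway lists were chosen with earlier results of these data known. The text names the 10 genes, the 10 most and 5 least alike in r, and up to 4 genes of each list with the highest SD. Kl, Htr2c, Igf2, Slc4a2, Bcl11b, Prox1, Grik4, Nrgn and the genes named as constant were added after their values were seen. Alternatives changed the replicate block, the normalization, the removal of dim or of invariable probe sets, and the arrays used.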

Additional observations from a re-analysis of the deposited data

Results flagged for a closer look

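None of the 10 choroid plexus genes had an array that stood apart from the others of its group. The named genes of the lists were examined in 154 groups of 5 arrays by the gap of the highest or lowest array to its neighbour, as a share of the range. This marked 15 groups, where chance marks about 1 in 20 of groups not chosen by their spread. The genes of the lists were taken by their high SD, which 1 outlying array raises, and several share array P2. The number marked is therefore a description and shows no excess over chance. Every difference is on the log2 scale.

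In the C-group, C1 was marked for 5 genes. Gngt2 was at 6.69 in C1 against 6.46 to 6.52 in C2 to C5, and Atp6ap2 at 10.09 against 9.79 to 9.84. C1 was the lowest for Gfap (10.71 against 11.42 to 11.59), Atp1b1 (11 against 12.40 to 12.53) and Ets2 (7.94 against 9.01 to 9.38). C2 was the lowest for Neurod6, at 9.82 against 10.44 to 10.63 in the other C-group arrays.

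In the P-group, P2 was marked for 7 genes. It was the highest for Pde6g (10.87 against 6.78 to 7.15 in the other P-group arrays), Pdc (8.82 against 5.63 to 5.67), Gngt1 (8.49 against 5.49 to 5.58), Gngt2 (9.35 against 6.33 to 6.49), Car3 (8.78 against 6.66 to 6.95) and Lpar1 (10.42 against 10.17 to 10.21). It was the lowest for Camk2a (8.93 against 9.60 to 9.76). P3 was the highest for Fmod, at 7.74 against 6.84 to 7.08, and P1 the lowest for Tmem119, at 7.51 against 7.67 to 7.71.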

How the results depend on the processing

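With all arrays, rank products gave 621 higher and 119 lower probe sets in the C-group. Among probe sets with an SD above 0.01 alone it called 5 higher and 0 lower, with 4 of the 10 genes called, and among probe sets with a mean above the median 158 higher and 30 lower, with 6 of the 10 genes tested and called. Leaving out 1 array gave 87 (without C1) to 789 (without P1) probe sets higher and 10 (without P4) to 220 (without C3) lower. The count higher moved by over 1.5 times without C2 (116), C4 (229), P4 (413) and P5 (323) as well, and the count lower without C5 (181), P1 (78), P2 (19), P3 (49) and P5 (30). Of the 10 genes, 9 to 10 stayed called, and their mean difference ran from 0.48 to 1.22. It was 0.75 without Ttr. limma called 0 probe sets in every setting. Of the 10 genes most like the 10, 3 were the same by Spearman's correlation, 9 with both groups centred, 9 without Ttr in the mean, and 7 to 10 with 1 array left out. Quantile normalization and median centring moved none of these counts by over 1.5 times. Precision is limited by 5 arrays per group.

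The replicate numbers gave no clear pairing of the arrays. Deviations of same-numbered arrays correlated at 0.28, -0.01, -0.39, 0.48 and 0.45, and 2 of 5 C-group arrays correlated best with their own number. So few pairs cannot settle whether the arrays were paired. With the replicate number as a block, rank products gave 913 higher and 335 lower probe sets, with all 10 genes called, and limma called 0.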
